A study of Mus musculus with 2 samples.

Results

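The genes of glucose uptake, glycolysis, lactate and pyruvate handling and the pentose phosphate pathway were followed across the lineages of the gastrulating mouse embryo, with and without *Yap1* in the epiblast. The group was a fixed list of 32 gene symbols, matched to the 32285 gene rows of the count tables, and each symbol was found. *Aldoa* had a second row with only 72 UMIs over the populations described here, which was left aside.

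Glucose enters the cell through SLC2A transporters, is trapped by hexokinases and is split into pyruvate by glycolysis. Pyruvate is reduced to lactate by lactate dehydrogenase and exported through SLC16A monocarboxylate carriers, or enters the mitochondrion through pyruvate dehydrogenase, which the PDH kinases switch off. A branch from glucose 6-phosphate, the pentose phosphate pathway, yields NADPH and ribose. Several steps have isozymes encoded by separate genes, and the choice among them is known to differ between tissues.

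Embryos at embryonic day 7 were pooled by genotype, dissociated enzymatically and captured with 3′ droplet chemistry, giving 1 library for each genotype. The control pool was described in the study as Sox2cre:Yap flox/+ and is labelled WT in the deposit, and the *Yap1* cKO pool carried Sox2cre with both *Yap* alleles floxed (labelled cYAPKO). Sox2cre drives recombination in the epiblast and its descendants and is not intended to act in the extraembryonic ectoderm or visceral endoderm, so those tissues were read beside the embryonic ones. The study cautions that its floxed embryos probably lack the paternal *Yap1* allele in extraembryonic tissues, so these may not have full *Yap1*. With 1 library for each genotype there was no replicate and no test between genotypes, and every interval below covers counting error only.

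With a minimum of 5000 detected genes, 791 control barcodes and 864 *Yap1* cKO barcodes were kept, with medians of 75715 and 80921.5 unique molecular identifiers (UMIs), and no such barcode was shared between the libraries. Summed marker genes divided them into 9 populations, listed here with control and *Yap1* cKO cell numbers: epiblast (277 and 275), primitive streak (37 and 41), nascent mesoderm (78 and 103), Foxf1/Hand1 mesoderm (49 and 37), blood and endothelial progenitors (30 and 35), node and axial cells (38 and 41), visceral endoderm (VE, 76 and 201), anterior visceral endoderm (AVE, 18 and 21) and extraembryonic ectoderm (ExE, 180 and 99). The list of 9 VE markers summed to 18705 and 18150 CPM in VE and to 9.97 and 11.9 CPM in epiblast. CPM stands for a gene's UMIs per 1000000 UMIs of the same cells. In node and axial cells, 6 node markers summed to 354 and 233 CPM. The 4 definitive endoderm markers, which share *Foxa2* with that list, summed to 841 and 658 CPM there and to 214 and 209 CPM in epiblast. No definitive endoderm population was gated, so endoderm cells may form a large part of the node and axial population. *Yap1* gave 666 UMIs in control epiblast and 31 in *Yap1* cKO epiblast. Both pools are labelled female, yet both held cells with at least 2 Y-linked UMIs and no *Xist* UMI (Y-bearing). These made up 51.7% of the control and 15.5% of the *Yap1* cKO barcodes. The libraries therefore held different mixtures of male and female embryos, and ratios are also given within Y-bearing and Xist-bearing cells.

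Summed over the 32 members, the pathway took 13792 CPM in control epiblast and 14113 CPM in *Yap1* cKO epiblast. ExE lay at a like level, with 14198 and 15065 CPM, whereas VE had 9045 and 9240 CPM in control and *Yap1* cKO. AVE lay between them, with 10433 and 10288 CPM. The difference between VE and epiblast was of the same direction and size in both libraries. Free RNA estimated from VE genes in epiblast made up 0.533% and 0.297% of epiblast UMIs in control and *Yap1* cKO.

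Hexose and lactate transporters differed between the lineages. *Slc2a2* (chr3:28697903-28731359), which encodes the low-affinity glucose and fructose carrier GLUT2, stood at 149 CPM in VE of the control and 139 CPM in VE of the knockout. It had 0 UMIs in control epiblast, 1 UMI in *Yap1* cKO epiblast and 0 UMIs in ExE of both libraries. Against a floor of 3 UMIs in the summed epiblast, control VE was at least 1118-fold higher, and the ratio in the *Yap1* cKO library was 3769 (counting interval 676 to 148930). Within VE, 89.5% and 94.03% of control and *Yap1* cKO cells held an *Slc2a2* UMI, compared with 0% and 0.364% of epiblast cells, at median depths of 76180.5 and 75371 UMIs in VE and 73348 and 85246 UMIs in epiblast. A count of 0 of 277 cells allows a share of cells with a UMI of up to 1.08%, which does not limit the share of cells that express the gene. In AVE, the signalling region that patterns the anterior embryo, *Slc2a2* stood at 2.11 and 3.76 CPM, which is 0.0142 and 0.0272 times its level in the other VE cells.

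*Slc2a3* (chr6:122727809-122801640, minus strand), encoding the high-affinity carrier GLUT3, was the leading hexose transporter of VE. Its level was 1392 CPM in control VE and 1477 CPM in *Yap1* cKO VE, against 74.8 and 49.6 CPM in epiblast, a difference of 18.6-fold and 29.8-fold. AVE kept it at 997 and 1341 CPM, and ExE held an intermediate 233 and 214 CPM. *Slc2a1* (chr4:119108711-119137983), encoding GLUT1, was instead highest in ExE, at 289 and 252 CPM in the 2 libraries, with 121 and 103 CPM in VE. Among epiblast and its derivatives, control *Slc2a1* was 245 CPM in epiblast, 145 CPM in primitive streak and 91.5 CPM in nascent mesoderm. It was 258 CPM in Foxf1/Hand1 mesoderm, a population of lateral and extraembryonic mesoderm character. Cell medians of *Slc2a1* were 230, 113 and 86.4 CPM in control epiblast, primitive streak and nascent mesoderm. In *Yap1* cKO they were 138, 140 and 74.5 CPM, so the lower level in streak than in epiblast was present in control only. The pooled *Slc2a1* level of control epiblast and Foxf1/Hand1 mesoderm did not differ beyond counting intervals (239 to 252 and 242 to 275 CPM). The spread over cells did differ. The median and 90th percentile were 230 and 428 CPM over control epiblast cells, and 168 and 621 CPM over control Foxf1/Hand1 mesoderm cells. The pooled intervals thus do not show that these populations are alike.

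Among the UMIs of these 3 transporters, *Slc2a1* thus took 76.6% and 73.5% in control and *Yap1* cKO epiblast, while *Slc2a3* took 83.8% and 86.0% in VE. In ExE they were close to even, with *Slc2a1* at 55.3% and 54.0%. *Slc2a2* made up 8.95% and 8.07% of the VE sum.

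The monocarboxylate carriers changed places along the same divide. *Slc16a1*, encoding MCT1, was 722 and 746 CPM in control and *Yap1* cKO VE and reached 1375 and 1004 CPM in AVE, against 51.9 and 39.4 CPM in epiblast. *Slc16a3*, encoding the lactate exporter MCT4, ran the other way, with 207 and 196 CPM in epiblast, 213 and 223 CPM in ExE, and only 24.5 and 13.9 CPM in VE. *Slc16a1* made up 96.7% and 98.2% of the pair in VE and 20.1% and 16.7% in epiblast. AVE cells lay above the other VE cells for *Slc16a3* (67.6 and 59.6 CPM, 2.76-fold and 4.30-fold) and for *Ldhb* (78.2 and 104 CPM, 2.86-fold and 3.87-fold). These were the 2 of 23 members measured there that were at least 2-fold higher in AVE than in VE in both libraries (background 5.91% of genes), and *Slc2a2* was the 1 member at least 2-fold lower (background 6.12%).

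**Figure D1:**
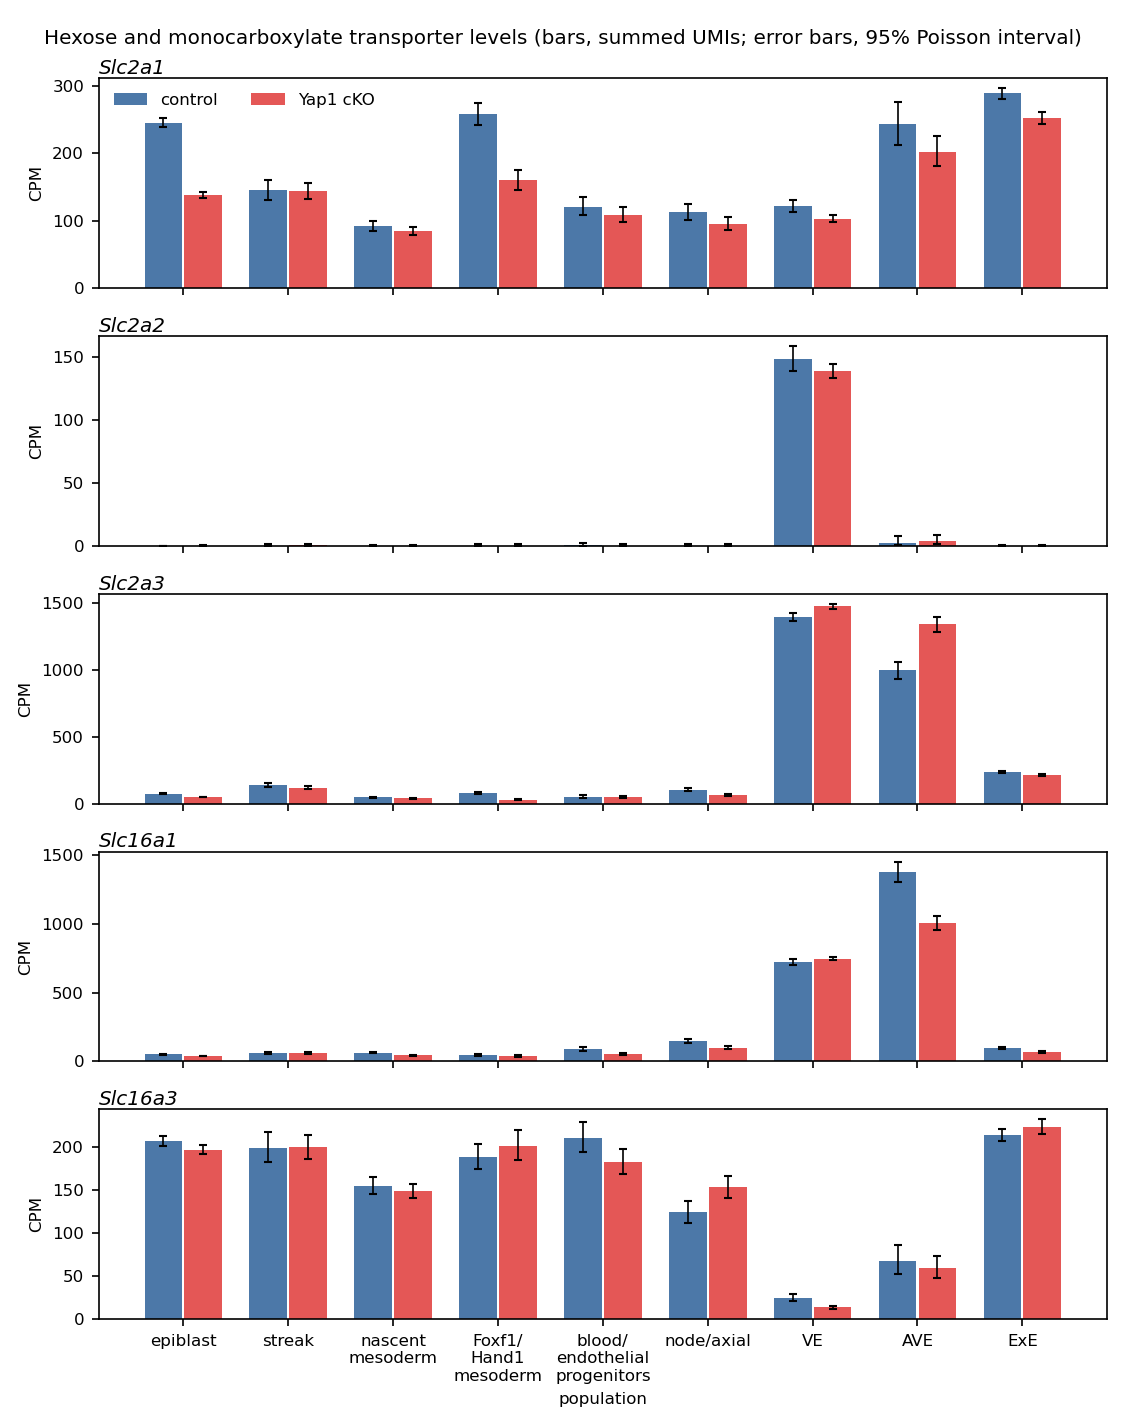
Levels of the 5 hexose and monocarboxylate transporters in each population (x axis) as CPM of summed UMIs (y axis, from 0), with control in blue, *Yap1* cKO in red and error bars for the 95% Poisson interval. *Slc2a2* bars stand only in VE, *Slc2a3* and *Slc16a1* bars are tallest in VE and AVE, and *Slc16a3* is lowest there.

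The DNA just before 3 of these transporters and before *Pgk1* is shown because their levels divide the lineages or the cells of the *Yap1* cKO pool described further on. The sequences are the stretches preceding the annotated gene in the RefSeq promoter table (build GRCm38.p6, plus strand for all 4), with ACGTG in capitals on either strand. ACGTG is the core of the hypoxia response element and forms part of the E-box CACGTG, so a palindromic CACGTG counts as a match on both strands.
Slc2a1, chr4:119108495-119108710: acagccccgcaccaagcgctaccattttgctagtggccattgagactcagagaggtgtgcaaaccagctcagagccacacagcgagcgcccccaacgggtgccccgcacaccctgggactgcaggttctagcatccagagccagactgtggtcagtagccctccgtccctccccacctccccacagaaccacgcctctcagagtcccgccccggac
Slc2a2, chr3:28697653-28697902: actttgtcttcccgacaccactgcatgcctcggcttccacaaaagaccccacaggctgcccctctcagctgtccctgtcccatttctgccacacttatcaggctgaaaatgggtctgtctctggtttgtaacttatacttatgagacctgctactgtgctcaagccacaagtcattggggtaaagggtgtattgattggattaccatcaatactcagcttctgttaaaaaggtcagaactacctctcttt
Slc16a1, chr3:104638414-104638663: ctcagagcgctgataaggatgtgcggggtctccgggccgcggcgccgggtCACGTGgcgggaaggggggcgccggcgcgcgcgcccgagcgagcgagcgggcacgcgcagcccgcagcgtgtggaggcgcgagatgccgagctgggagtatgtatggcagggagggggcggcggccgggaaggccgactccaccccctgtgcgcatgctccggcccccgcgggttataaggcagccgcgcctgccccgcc
Pgk1, chrX:106186850-106187099: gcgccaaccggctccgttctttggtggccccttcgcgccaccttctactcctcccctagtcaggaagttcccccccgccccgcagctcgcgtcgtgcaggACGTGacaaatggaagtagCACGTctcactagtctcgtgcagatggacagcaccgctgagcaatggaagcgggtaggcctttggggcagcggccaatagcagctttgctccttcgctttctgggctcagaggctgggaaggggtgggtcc
*Slc16a1* held 1 CACGTG, *Pgk1* held 2 separate ACGTG matches, and neither letter string was found in the printed *Slc2a2* stretch. The *Slc2a1* stretch, printed up to the annotated gene start, ends inside an ACGTG, so its full window of 250 bases held 1 match that is not in capitals above. Of the 31 members with a promoter entry, 12 (38.7%) held ACGTG in at least 1 window of 250 bases before the start, compared with 25.1% of the 10902 genes with at least 100 UMIs here and 18.5% of all 27025 genes in the table. CACGTG was found for 12.9% of members and 9.92% of genes with at least 100 UMIs, and GGAATG, the core letters read by TEAD factors, for 12.9% of both. These matches describe letters and not binding.

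The glycolytic enzymes themselves were lower in VE. A lineage difference is counted below when it was at least 2-fold in the same direction in both libraries, on at least 100 UMIs in each, beside the share of all such genes that pass (the background). Of 32 members with enough UMIs, 13 were at least 2-fold lower in VE than in epiblast in both libraries (background 17.8%), and 3 were at least 2-fold higher (background 15.5%), the transporters *Slc2a2*, *Slc2a3* and *Slc16a1*. The median member differed by -0.90 and -0.78 on the log2 scale in control and *Yap1* cKO, while the median gene differed by -0.13 and -0.11. The payoff steps from glyceraldehyde 3-phosphate to pyruvate summed to 7872 and 8411 CPM in epiblast and to 3631 and 3674 CPM in VE. *Eno1*, which makes phosphoenolpyruvate, was 920.4 and 730.3 CPM in epiblast and 359 and 307 CPM in VE. *Pkm*, whose enzyme makes pyruvate, was 1768 and 1799 CPM in epiblast and 689 and 703 CPM in VE. *Gapdh* differed by 0.491-fold and 0.419-fold and *Pgk1* by 0.448-fold and 0.493-fold. The difference was not uniform along the pathway, since *Tpi1* stood at 498 and 519.6 CPM in VE against 547 and 531 CPM in epiblast. Members that stayed inside 2-fold included *Ldha*, the main lactate dehydrogenase gene, at 2279 and 2289 CPM in epiblast and 1160 and 1248 CPM in VE, and *Pgam1*, the phosphoglycerate mutase gene, at 1290 and 1503 CPM against 698 and 768 CPM. *Gpi1*, which isomerises glucose 6-phosphate, was 194 and 199.8 CPM in epiblast and 136 and 128 CPM in VE.

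Side branches differed in kind. *Tkt*, the transketolase of the nonoxidative pentose phosphate branch, was 322 and 299 CPM in epiblast and 110.0 and 104 CPM in VE. The oxidative-branch genes *G6pdx* and *Pgd* were near level, *Pgd* at 89.0 and 87.3 CPM in epiblast and 82.3 and 92.3 CPM in VE. *Taldo1*, the transaldolase gene, was 285 and 301 CPM in epiblast and 223 and 186 CPM in VE. *Ldhb*, encoding the heart-type lactate dehydrogenase subunit, was 278 and 292 CPM in epiblast against 27.4 and 26.7 CPM in VE, and so contributed 10.9% and 11.3% of *Ldha* plus *Ldhb* UMIs in epiblast but 2.31% and 2.10% in VE. *Eno3*, encoding the muscle-type enolase, was 26.5 and 26.8 CPM in epiblast and 1.18 and 1.15 CPM in VE. Of the other 6 members past the fold, *Pfkl* and *Pfkm* (phosphofructokinase), *Hk1* (hexokinase), *Aldoc* (aldolase) and *Pdk3* (PDH kinase) were lower in VE by at least 2-fold in both libraries, as was *Slc16a3* above.

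**Figure D2:**
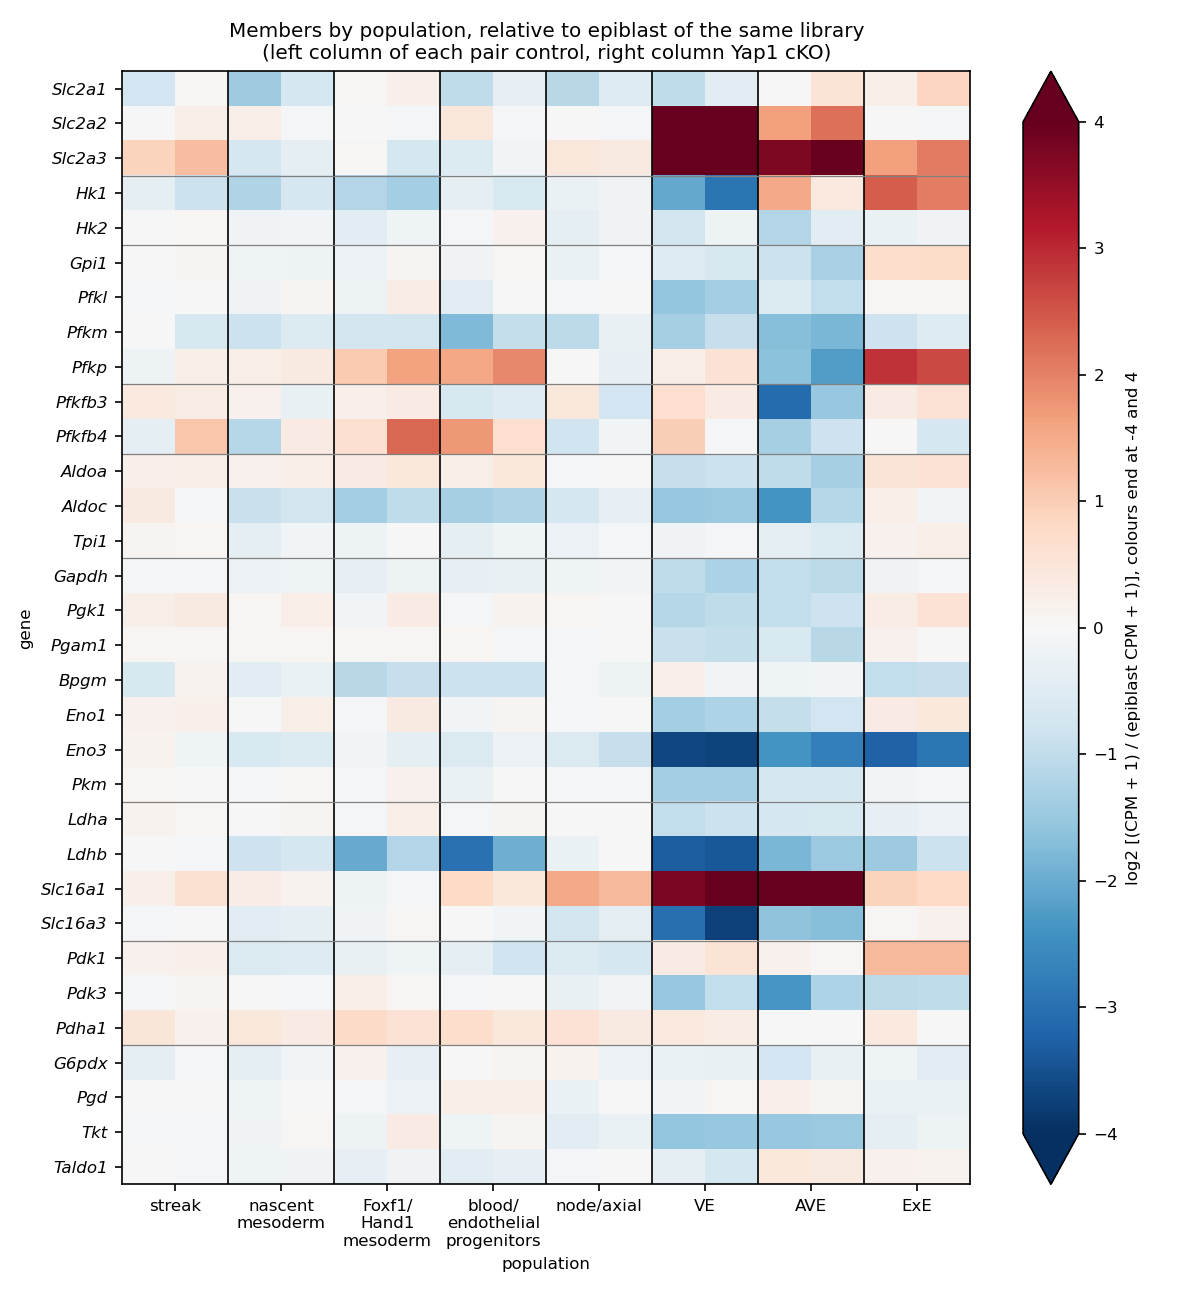
Each row is 1 of the 32 genes and each pair of columns a population (left control, right *Yap1* cKO), coloured by the log2 ratio of CPM + 1 to that in epiblast of the same library, with grey lines between pathway steps. VE columns are blue for most enzymes and red for *Slc2a2*, *Slc2a3* and *Slc16a1*, while ExE is red for *Slc2a3*, *Hk1*, *Pfkp* and *Pdk1*.

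ExE, the trophoblast compartment next to the epiblast, kept the enzyme level of epiblast and differed by isozyme. Of 31 members measured, 4 were at least 2-fold higher in ExE than in epiblast in both libraries (background 9.03%) and 2 were at least 2-fold lower (background 15.1%). The higher count was near the background and the lower count below it. *Pfkp*, the platelet-type phosphofructokinase gene, was 70.0 and 46.1 CPM in ExE of the control and knockout against 8.64 and 6.62 CPM in epiblast. *Hk1* was 50.7 and 41.8 CPM against 8.64 and 9.26 CPM. *Pdk1*, a hypoxia-responsive PDH kinase gene, was 60.7 and 51.6 CPM against 24.3 and 20.6 CPM, and *Slc2a3* was the remaining member that was higher. *Eno3*, at 1.93 and 2.72 CPM, and the X-linked *Pdk3*, at 14.1 and 12.7 CPM, were the 2 lower members.

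Isozyme shares in ExE differed accordingly. *Hk1* accounted for 30.4% and 28.4% of hexokinase UMIs in control and *Yap1* cKO ExE, compared with 5.79% and 7.35% in epiblast and 1.59% and 0.361% in VE. *Pfkp* took 26.8% and 21.7% of phosphofructokinase UMIs in ExE and 4.27% and 3.80% in epiblast, with *Pfkl* leading in each population. *Pdk1* took 81.1% and 80.3% of the *Pdk1* and *Pdk3* sum in ExE, 75.4% and 70.1% in VE, and 44.0% and 43.5% in epiblast. *Aldoa* made up 99.5%, 99.8% and 99.6% of the *Aldoa* and *Aldoc* sum in control epiblast, VE and ExE, and *Eno1* 97.2%, 99.7% and 99.8% of the enolase sum, so these families had 1 leading member throughout. Compared with VE, ExE had 12 of 29 members at least 2-fold higher in both libraries (background 10.6%) and 3 lower (background 14.4%). *Eno1* was 3.23-fold and 3.22-fold higher and *Aldoa* 2.70-fold and 2.72-fold higher in ExE than in VE, and the 3 lower members were *Slc2a2*, *Slc2a3* and *Slc16a1*.

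**Figure D3:**
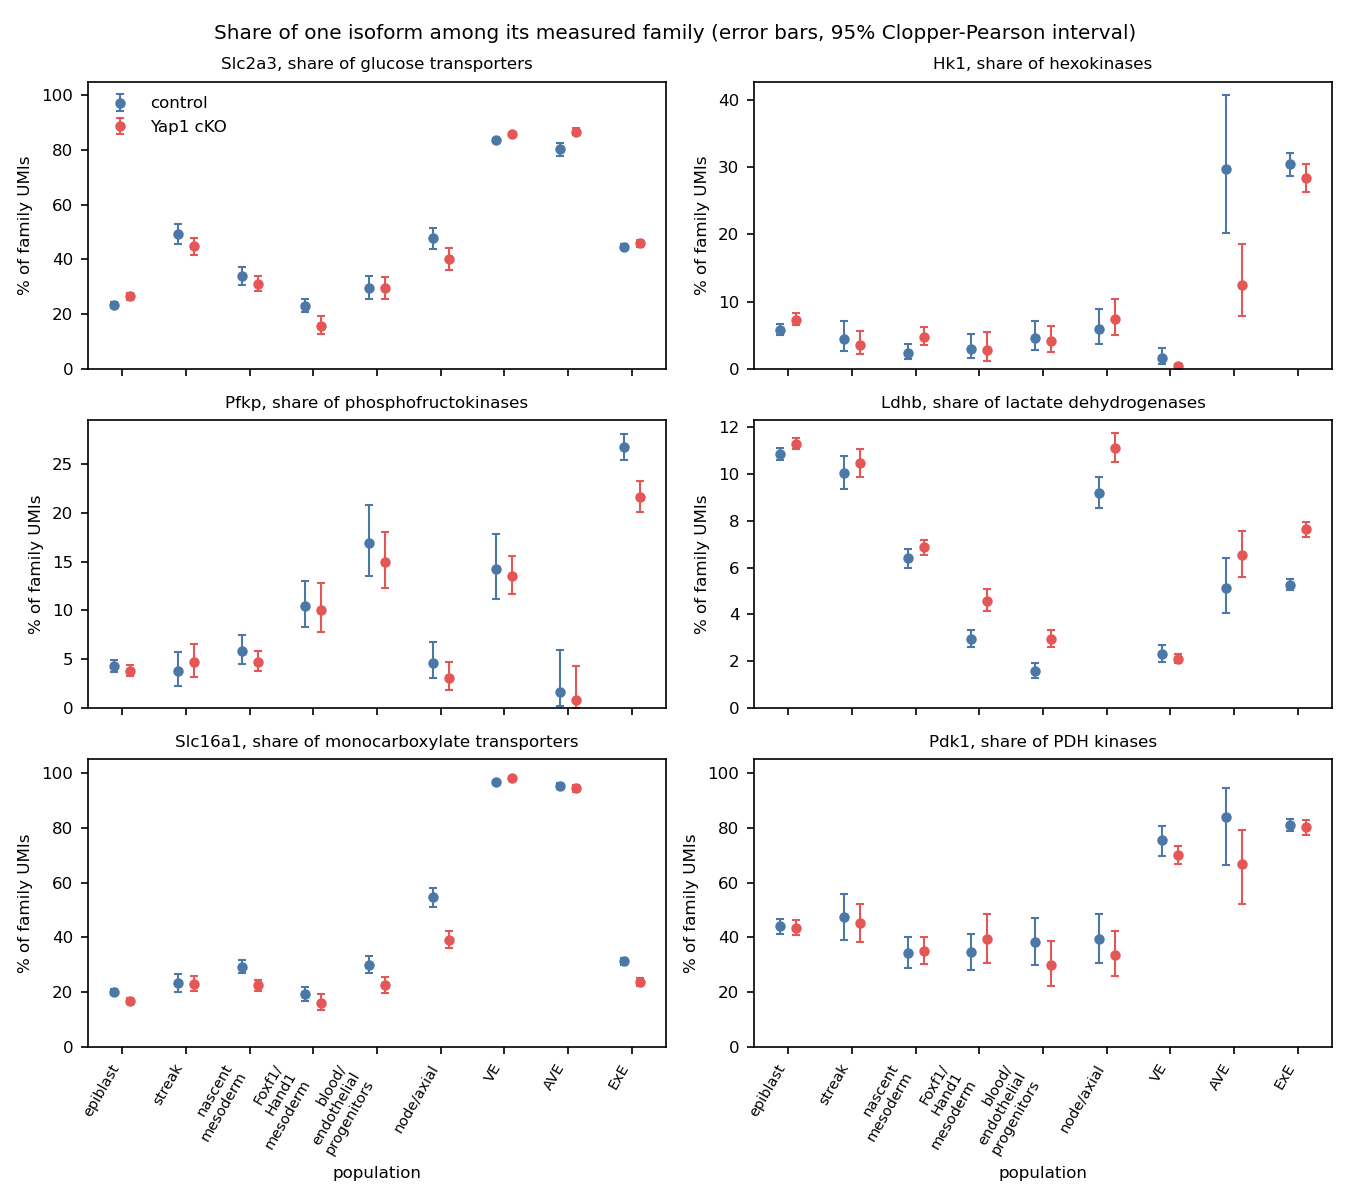
Share of 1 isoform among the UMIs of its measured family (y axis, percent) in each population (x axis), with control in blue, *Yap1* cKO in red and error bars for the 95% Clopper-Pearson interval. *Slc2a3* and *Slc16a1* shares are highest in VE and AVE, *Pfkp* in ExE, and *Ldhb* is lower in Foxf1/Hand1 mesoderm and blood and endothelial progenitors.

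Few members passed 2-fold in both libraries between epiblast and its derivatives, and few genes in general did. Smaller or single-library differences are not counted by this rule. The 3 glucose transporters summed to 320 and 187 CPM in control and *Yap1* cKO epiblast, and to 139 and 123 CPM in nascent mesoderm. Primitive streak, the site of cell ingression, had 0 of 31 members at least 2-fold higher and 0 lower than epiblast in both libraries (background 1.54% and 1.74%). Nascent mesoderm had 0 higher and 1 lower (background 4.18% and 6.99%), the low-level *Aldoc*, and node and axial cells had 1 of 30 higher (background 2.72%), *Slc16a1* at 149.5 and 98.5 CPM, and 0 lower (background 2.43%). Foxf1/Hand1 mesoderm had 1 of 31 members higher and 3 lower (background 5.24% and 8.99%). Blood and endothelial progenitors also had 1 of 31 higher and 3 lower (background 4.69% and 9.64%). The counts in these later populations were near the background.

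*Ldhb*, *Pfkp* and *Aldoc* passed the fold in both of those later populations. *Aldoc* rested on 3 or 4 UMIs in each of them, at 1.09 and 1.49 CPM in Foxf1/Hand1 mesoderm and 1.10 and 1.19 CPM in blood and endothelial progenitors, against 4.30 and 4.01 CPM in epiblast. Control *Ldhb* was 278 CPM in epiblast, 279 CPM in primitive streak, 156 CPM in nascent mesoderm, 67.4 CPM in Foxf1/Hand1 mesoderm and 34.4 CPM in blood and endothelial progenitors. In the *Yap1* cKO library the same order was 292, 276, 184, 130.0 and 74.5 CPM. Each library thus had its lowest embryonic *Ldhb* level in blood and endothelial progenitors, and epiblast and primitive streak were near each other. *Pfkp* was higher in Foxf1/Hand1 mesoderm (19.0 and 22.0 CPM) and in blood and endothelial progenitors (27.1 and 28.0 CPM) than in epiblast, by 2.20-fold to 4.24-fold. In blood and endothelial progenitors *Pfkm* was also lower, at 4.02 and 6.56 CPM, and *Hk1* was lower in Foxf1/Hand1 mesoderm, at 3.26 and 2.99 CPM.

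Neighbouring pathways were read from fixed lists under the same 2-fold rule, against the background of 15.5% of genes higher and 17.8% lower in VE than in epiblast. In VE against epiblast, 6 of 10 measured gluconeogenesis and glycogen genes were higher (*G6pc3*, *Gys1*, *Gyg*, *Pygb*, *Pgm2* and *Ugp2*). The 1 lower gene was *Pck2*, at 1.86 and 2.48 CPM in VE against 14.8 and 16.6 CPM in epiblast. *Ugp2* and *Gyg*, which make glycogen precursors, were 52.9 and 37.3 CPM in control VE and 17.6 and 9.97 CPM in control epiblast. The mitochondrial pyruvate carrier genes *Mpc1* and *Mpc2* were higher in VE by 4.81-fold and 13.4-fold in control and by 5.27-fold and 15.1-fold in *Yap1* cKO. They were 2 of the 3 higher genes (with *Ogdh*) among 25 of pyruvate entry and the citric acid cycle, of which 1 was lower, the PDH phosphatase *Pdp1*.

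Of the other pentose phosphate genes, *Rpia* and *Rpe*, which interconvert pentose phosphates, were higher in VE and *Prps1* and *Prps2*, which activate ribose for nucleotide synthesis, were lower, out of 5 measured. *Prps2* was 45.8 and 42.4 CPM in epiblast and 1.35 and 0.666 CPM in VE. Of 17 hypoxia response genes, *Vegfa*, *P4ha1* and *Ero1l* were higher in VE and *Ddit4* and *Mxi1* lower, with *Vegfa* at 52.6 and 62.5 CPM against 3.77 and 3.01 CPM. The counts of the hypoxia list were near the background. Among the regulators, *Hnf4a* and *Foxa2* were higher and *Mycn*, *Mycl* and *Lin28b* lower. *Foxa2*, an endoderm factor gene, was 28.7 and 27.1 CPM in VE and 1.37 and 2.24 CPM in epiblast.

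ExE against epiblast gave 5 of 17 hypoxia response genes higher and 1 lower (background 9.03% and 15.1%, which applies to each list in this tissue), including *Ankrd37* at 54.9 and 67.4 CPM against 11.1 and 10.1 CPM, and the abundant *Higd1a* at 671 and 671 CPM against 212 and 218 CPM. *Mpc1* and *Mpc2* were also higher in ExE, by 7.06-fold and 4.30-fold in control and by 6.53-fold and 4.27-fold in *Yap1* cKO, among 25 genes of which 2 others, *Pdp1* and *Mdh1*, were lower. *Myc* was higher, at 61.6 and 52.6 CPM against 24.1 and 19.4 CPM, and *Lin28b* was lower. Of 12 gluconeogenesis and glycogen genes 3 were higher (*Pygl*, *Pgm2* and *Ugp2*) and 2 lower (*Pck2* and *Gbe1*). *Prps1* and *Prps2* were lower, out of 5 other pentose phosphate genes, as were *Slc2a8*, the 1 measured gene of the other hexose transporters, and *Ldhc*, of 4 other glycolysis isozymes. In VE, *Slc2a8* passed neither fold and *Ldhc* was lower.

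The question of the knockout was which of these genes differed with loss of *Yap1*. In epiblast, 2 of 31 members were at least 1.5-fold lower in *Yap1* cKO (background 2.18%) and 0 were at least 1.5-fold higher (background 1.24%). The 2 members were glucose transporters. *Slc2a1* was 245 and 138 CPM in control and *Yap1* cKO, a ratio of 0.562 (0.539 to 0.586). *Slc2a3* was 74.8 and 49.6 CPM, a ratio of 0.663 (0.617 to 0.713), which lies just past the threshold. The rest of the pathway was at a similar level, since the median member had a log2 ratio of -0.08 and the median gene -0.05, and member ratios ran from 0.562 to 1.20. *Eno1* had a ratio of 0.794, *Slc16a1* 0.758, *Hk2* 0.831, *Ldha* 1.005 and *Gapdh* 1.20.

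Single epiblast cells gave the same picture for *Slc2a1*, with overlap between libraries. The 10th percentile, median and 90th percentile over cells were 109, 230.02 and 428 CPM for control cells and 50.2, 138 and 263 CPM for *Yap1* cKO cells. The summed pathway level of single cells had medians of 13746 and 14398 CPM. Other populations did not all share the *Slc2a1* difference. Its pooled ratio was 0.993 in primitive streak and 0.925 in nascent mesoderm, then 0.620 (0.552 to 0.696) in Foxf1/Hand1 mesoderm. Over single Foxf1/Hand1 mesoderm cells the medians lay closer together, 168 CPM for control cells and 143 CPM for *Yap1* cKO cells. The 90th percentiles there were 621 and 324 CPM, so the pooled ratio followed the highest cells more than the median cell. In streak the cell medians were 113 and 140 CPM, the higher one in *Yap1* cKO. In VE and ExE, not intended to lose *Yap1*, the pooled *Slc2a1* ratios were 0.848 and 0.872. No test of a difference between populations was possible with 1 library each.

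Epiblast cells were also divided by *Fgf8*, a gene of cells approaching the streak. The reason was that control *Slc2a1* was lower in streak and nascent mesoderm than in epiblast. The libraries also held different numbers of *Fgf8*-positive cells. This division was added after the data were seen. With a limit of 50 CPM, 81 of 277 control epiblast cells were *Fgf8*-positive, against 157 of 275 in the *Yap1* cKO library. Among *Fgf8*-low cells, *Slc2a1* was 267 and 171 CPM, a ratio of 0.640 (0.606 to 0.676). Among *Fgf8*-positive cells it was 192 and 115 CPM, a ratio of 0.601 (0.559 to 0.646). *Slc2a3* had ratios of 0.752 and 0.507 in *Fgf8*-low and *Fgf8*-positive cells. The *Slc2a1* ratio was below 1 in both kinds of cell, but the division did not match the libraries. *Fgf8* itself was 12.8 and 18.4 CPM in control and *Yap1* cKO *Fgf8*-low cells, and 256 and 294 CPM in *Fgf8*-positive cells. Y-bearing cells were 107 of 196 control and 16 of 118 *Yap1* cKO *Fgf8*-low cells. The part of the cell mixture in the *Slc2a1* ratio was not tested.

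Outside epiblast the members past 1.5-fold between genotypes were few and varied. In Foxf1/Hand1 mesoderm *Slc2a3* was 77.5 and 29.9 CPM (ratio 0.386) and, with *Slc2a1*, made 2 of 24 members lower (background 2.85%), while *Ldhb*, at 67.4 and 130.0 CPM, was the 1 higher (ratio 1.93, background 2.35%). In blood and endothelial progenitors *Ldhb* was 34.4 and 74.5 CPM (ratio 2.17), 1 of 24 higher (background 4.47%), and *Slc16a1* 90.002 and 52.8 CPM (ratio 0.586), 1 lower (background 2.66%). Node and axial cells had 2 of 23 lower (background 5.20%), *Slc2a3* at a ratio of 0.624 and *Slc16a1* at 0.659, and 0 higher (background 1.27%). Primitive streak had *Bpgm*, the red-cell type bisphosphoglycerate mutase gene, 1 of 24 higher on 55 and 134 UMIs (ratio 1.64, background 1.89%) and 0 lower (background 2.12%). Nascent mesoderm had *Pfkfb3*, of the enzyme pair that sets fructose 2,6-bisphosphate, 1 of 28 lower on 51 and 51 UMIs (ratio 0.661, 0.440 to 0.994, background 1.73%), and 0 higher (background 1.94%). The *Pfkfb3* ratio was 1.409 in Xist-bearing cells alone, and that of *Slc2a3* in node and axial cells was 1.451 with gates at 2 times the threshold.

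The extraembryonic tissues had differences of the same order. ExE had *Pfkp*, at 70.0 and 46.1 CPM, 1 of 29 lower (ratio 0.659, background 1.58%), and *Ldhb*, at 100.3 and 161 CPM, 1 higher (ratio 1.60, background 0.865%). VE had *Pfkfb4* on 54 and 46 UMIs (ratio 0.305) and *Slc16a3* at 24.5 and 13.9 CPM (ratio 0.566), 2 of 29 lower (background 2.26%), and 0 higher (background 1.87%). The *Pfkfb4* ratio was 1.076 in Y-bearing cells and the *Slc16a3* ratio 1.058 in Xist-bearing cells alone. AVE, with 18 and 21 cells, had 1 of 20 members lower and 0 higher (background 2.24% and 3.11%), *Pfkl* on 114 and 122 UMIs. That population held fewer cells than the 20 set for naming genes, and *Pfkl* was named after its values were seen. A ratio above 1 for *Ldhb* was therefore present in Foxf1/Hand1 mesoderm, blood and endothelial progenitors and ExE. It was small in epiblast (1.05) and absent in VE (0.976), while AVE levels, given above, were higher in *Yap1* cKO. The epiblast marker list summed to 153 and 252 CPM in control and *Yap1* cKO Foxf1/Hand1 mesoderm. In blood and endothelial progenitors it summed to 113 and 247 CPM, so these gates held unlike cells in the libraries. The part of this in the *Ldhb* ratios was not tested. *Gapdh* had ratios between 1.20 and 1.29 in epiblast, Foxf1/Hand1 mesoderm and ExE and 1.02 in VE.

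**Figure D4:**
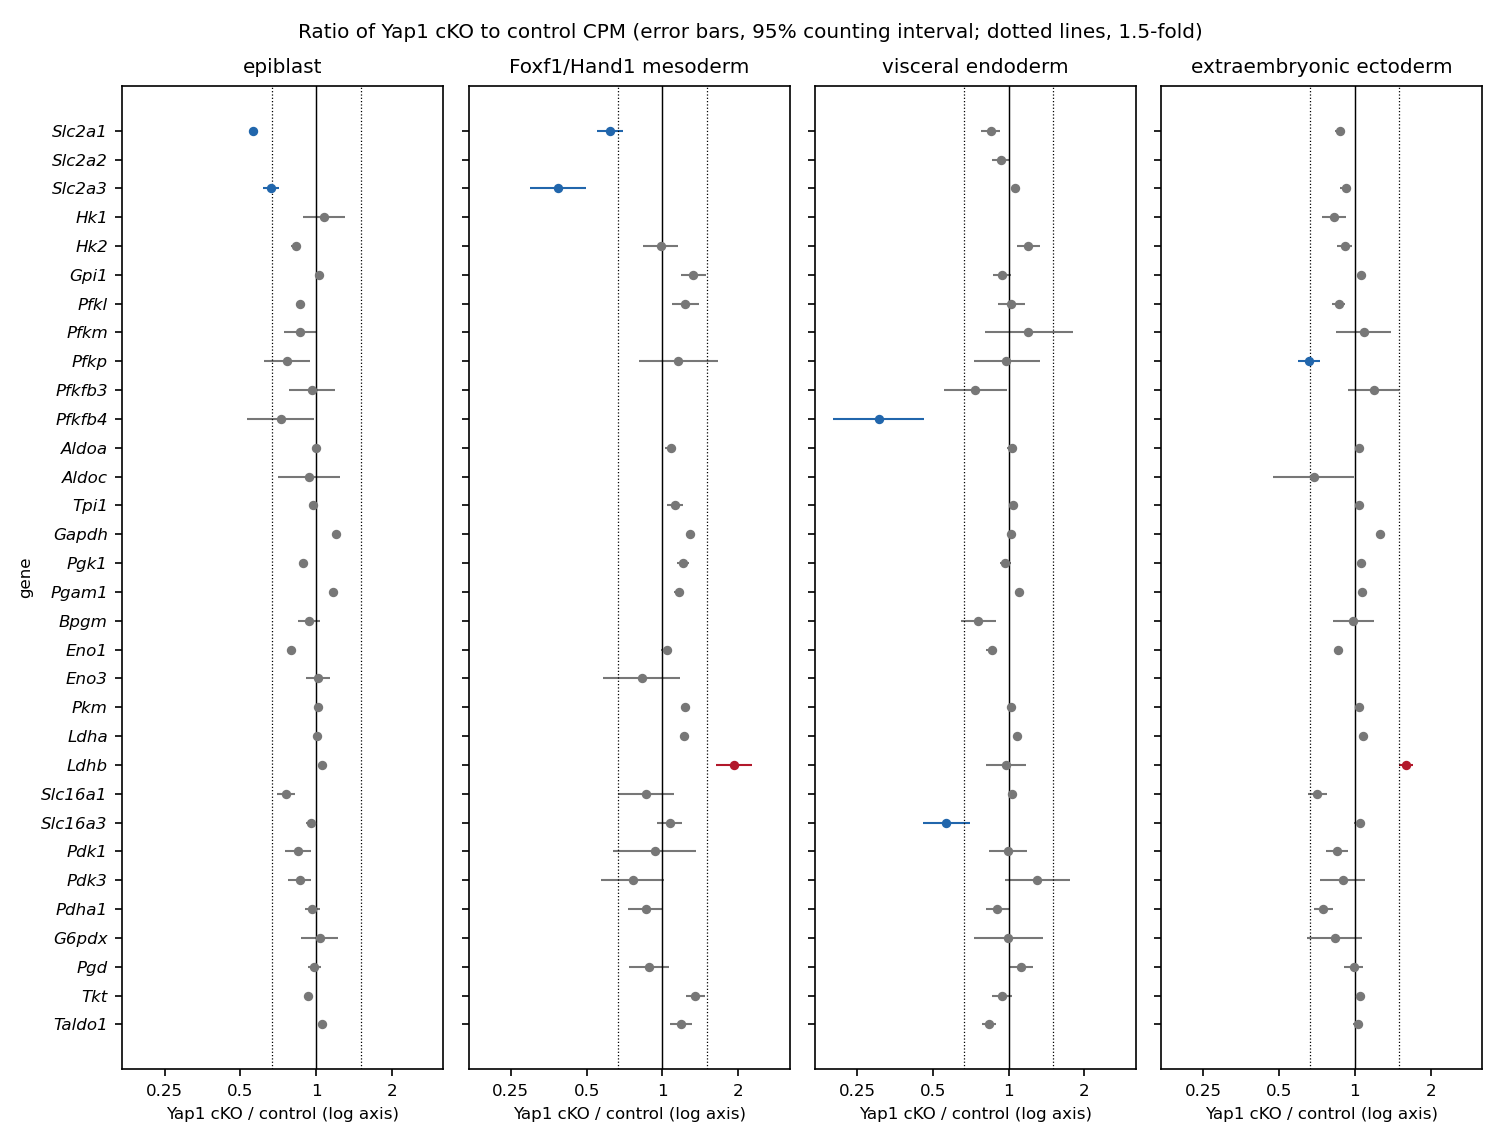
Ratio of *Yap1* cKO to control CPM (log x axis) for each member with at least 100 UMIs (y axis) in 4 populations, with error bars for the 95% counting interval, dotted lines at 1.5-fold, blue for past 1.5-fold lower and red for past 1.5-fold higher. Most members sit near 1, with *Slc2a1* and *Slc2a3* to the left in epiblast and Foxf1/Hand1 mesoderm and *Ldhb* to the right in Foxf1/Hand1 mesoderm and ExE.

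From the other lists, 2 genes passed 1.5-fold in epiblast, both higher in *Yap1* cKO (background 1.24% higher and 2.18% lower). They were 1 of 8 regulators and 1 of 11 gluconeogenesis and glycogen genes measured. The remaining lists, with 1, 4, 25, 5 and 17 genes measured, had none. *Txnip*, whose product limits glucose uptake, was 5.85 and 10.8 CPM (ratio 1.85), and *Gys1*, the glycogen synthase gene, was 4.43 and 7.32 CPM (ratio 1.65). Of the 17 hypoxia response genes measured in epiblast, 0 passed 1.5-fold in either direction.

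The members of the *Yap1* cKO library depended on whether cells carried Y-linked or *Xist* UMIs, which come from different embryos of the pool. In control epiblast, with 142 Y-bearing and 124 Xist-bearing cells, 0 of 29 members were at least 1.5-fold higher and 0 lower in Xist-bearing cells (background 1.64% and 0.804%). In *Yap1* cKO epiblast, with 58 and 207 cells, 6 of 29 were higher in Xist-bearing cells (background 4.19%) and 0 lower (background 0.723%), and the median member differed by 0.30 on the log2 scale, with 0.11 for the median gene. The same was seen in ExE, where the *Yap1* cKO library had 19 Y-bearing and 68 Xist-bearing cells. There, 8 of 26 members were at least 1.5-fold higher in Xist-bearing cells (background 5.27%) and 0 lower (background 1.76%), with a median member of 0.38 and a median gene of -0.01 on the log2 scale. In control ExE 0 were higher and 1 lower (background 0.562% and 1.65%), with a median member of 0.07.

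The other populations with at least 8 cells of each class in both libraries were read the same way. In nascent mesoderm of the *Yap1* cKO, 4 of 23 members were higher in Xist-bearing cells and 1 lower (background 3.13% and 2.85%), against 0 and 1 in the control (background 1.43% and 1.91%). Foxf1/Hand1 mesoderm of the *Yap1* cKO had 8 of 19 higher and 0 lower (background 4.12% and 5.13%), against 0 and 0 in the control (background 0.626% and 3.40%). Blood and endothelial progenitors had 7 of 19 higher and 0 lower in the knockout (background 5.11% and 2.91%), against 0 and 1 in the control (background 1.89% and 1.45%). In VE the counts were smaller, with 3 of 23 higher and 2 lower in the knockout (background 6.83% and 7.72%) and 1 and 2 in the control (background 3.80% and 2.30%). Y-bearing *Yap1* cKO cells numbered 8 to 12 in these 4 populations.

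Individual genes show the size of this split. *Slc2a1* in epiblast was 256 CPM for Y-bearing and 231 CPM for Xist-bearing control cells, and 95.2 and 155 CPM for the same *Yap1* cKO classes. Its ratio to control was thus 0.372 (0.342 to 0.404) with Y-linked UMIs and 0.669 (0.634 to 0.706) with *Xist* UMIs. Both were below 1, and the ratio with *Xist* UMIs fell just short of 1.5-fold lower. In ExE the *Slc2a1* ratios for these classes were 0.609 and 0.944. *Slc2a3* in epiblast had ratios of 0.751 and 0.623 in Y-bearing and Xist-bearing cells, but 0.555 and 1.14 in ExE.

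Glycolytic and pentose phosphate enzymes followed the same division. *Eno1* in epiblast had ratios of 0.593 and 0.871 in the Y-bearing and Xist-bearing classes, with 0.626 and 0.866 in ExE. *Tkt* in epiblast had ratios of 0.616 and 0.985. The X-linked *Pgk1* had epiblast ratios of 0.725 and 1.01 and ExE ratios of 0.725 and 1.10, and the other X-linked members *Pdha1*, *Pdk3* and *G6pdx* had epiblast ratios of 0.798, 0.717 and 0.935 in Y-bearing and 1.02, 0.970 and 1.12 in Xist-bearing cells. *Pfkp* in ExE had ratios of 0.463 and 0.895, and did not pass 1.5-fold in Xist-bearing cells alone.

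In epiblast, depth moved with this split. Y-bearing *Yap1* cKO epiblast cells held a mean of 129846 UMIs and Xist-bearing ones 91199, compared with 79228 and 83991 in the control classes. In ExE the means were 129947 and 119482 UMIs in the knockout and 100103 and 90881 in the control. In nascent mesoderm of the knockout they were 87888 and 88910 UMIs and in Foxf1/Hand1 mesoderm 67224 and 74781, so Y-bearing cells were not the deeper class there. The part of depth in the epiblast differences was not tested. Mitochondrial UMIs made up 0.820% and 0.743% of Y-bearing and Xist-bearing *Yap1* cKO epiblast, and ribosomal protein genes 24.4% and 22.8%. *Yap1* was 1.46 and 1.06 CPM in them, compared with 29.6 and 29.4 CPM in the control classes, so both had the reduction. *Fgf8* was 157 and 191 CPM and the epiblast gene *Utf1* 388 and 542 CPM in the *Yap1* cKO classes. *Ddit4*, a stress and hypoxia gene, was 2.92 CPM in Y-bearing and 13.7 CPM in Xist-bearing *Yap1* cKO epiblast, and 2.84 and 18.2 CPM in ExE. In control it was 13.8 and 8.35 CPM in epiblast and 10.5 and 2.86 CPM in ExE. *Ddit4* had the widest split of 16 hypoxia response genes in *Yap1* cKO epiblast. Of these, 3 were at least 1.5-fold higher in Xist-bearing cells, with *P4ha1* and *Mxi1*, and 0 lower (background 4.19% and 0.723%). The abundant *Higd1a* went the other way, at 258 and 203 CPM, and *Bnip3* was 70.5 and 84.6 CPM. In control epiblast, 0 of these 16 genes were higher in Xist-bearing cells and 2 lower, *Ddit4* and *Ankrd37* (background 1.64% and 0.804%). ExE had 0 of 14 hypoxia response genes higher and 4 lower in the control, against 3 and 0 in the knockout. Nascent mesoderm had 0 of 12 higher and 5 lower in the control, against 2 and 0. VE had 0 of 11 higher and 1 lower in the control, against 0 and 0. The backgrounds of these tissues are those given above. *Txnip* was 3.85 and 13.3 CPM in the *Yap1* cKO epiblast classes and 5.24 and 6.53 CPM in control, so its pooled difference was absent from Y-bearing cells. Sex of the cells, embryo of origin and stage of that embryo cannot be told apart in these pools.

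*Ldhb* ratios lay above 1 in both classes of 3 populations, with of 2.45 and 2.31 in Foxf1/Hand1 mesoderm, 2.56 and 1.99 in blood and endothelial progenitors, and 1.31 and 1.56 in ExE. In VE, where *Ldhb* is low, they were 3.17 and 0.813. *Slc16a1* likewise had epiblast ratios of 0.737 and 0.709 and ExE ratios of 0.748 and 0.775. The *Slc16a1* ratios were thus below 1 in both classes of both tissues.

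**Figure D5:**
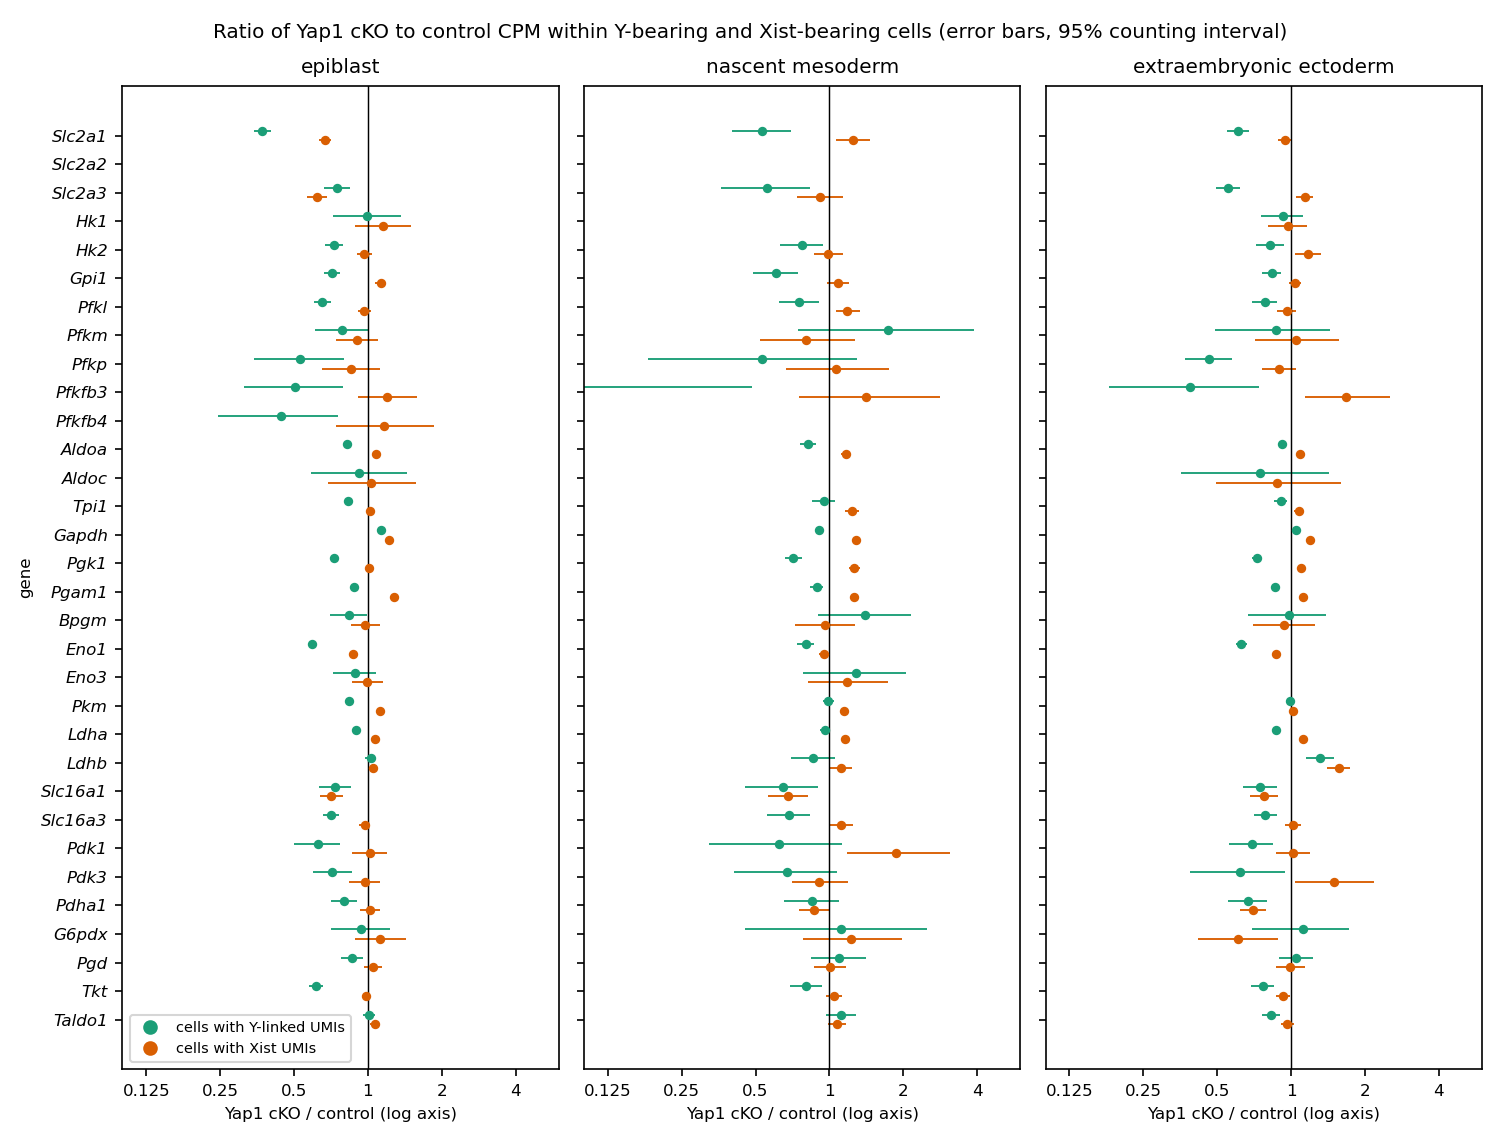
Ratio of *Yap1* cKO to control CPM (log x axis) for each member with at least 100 UMIs (y axis), computed within cells with Y-linked UMIs (green) and within cells with *Xist* UMIs (orange) of 3 populations, with error bars for the 95% counting interval. Green points lie left of orange ones for most glycolytic genes in epiblast and ExE alike, and both *Slc2a1* points in epiblast lie below 1.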

How the data were processed

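Each library was deposited by the authors as raw UMI counts per gene and barcode, made with Cell Ranger 7.1.0 against mm10 per the labels and not normalized. The study's removal of free RNA and its clustering were not repeated. UMIs were summed over the barcodes of each population with at least 5000 detected genes and divided by all UMIs of the same cells, as CPM. Populations were gated on summed marker CPM, with thresholds set after the marker sums were seen (VE at least 1000, AVE 300, ExE 200, epiblast 200, streak 50, nascent mesoderm 100, Foxf1/Hand1 mesoderm 400, node 100, blood 200), and 18 mixed and 1 ungated barcodes were left out. The members and gene lists were chosen with earlier results of these data known. Cells with at least 2 UMIs of Y-linked genes and no Xist UMI were called Y-bearing. Those with at least 2 Xist UMIs and no Y-linked UMI were called Xist-bearing, and all others were in neither class.

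Ratios carry exact conditional binomial 95% intervals, shares Clopper-Pearson and levels Poisson intervals. No test between genotypes was made, since there was 1 library for each. Genotype ratios were read at 1.5-fold where both libraries together held 100 UMIs or more, and lineage folds at 2-fold in both libraries. The background is the share of all measured genes past the same fold. The scripts were tested on simulated data. Some genes of the neighbouring lists are not reported here. Scanpy 1.11.5 scrublet called 1 and 4 of these barcodes doublets, which is too few to show that it worked, and they were kept. Counting of 3′ tags is not scaled by length, so levels are compared within a gene, or as shares of tags within a family. Members with processed pseudogenes, such as Gapdh, Eno1, Ldha, Tpi1 and Pgam1, may share reads with near-identical copies and are uncertain to that extent, and the splice forms of Pkm cannot be told apart. Gene positions come from GENCODE M21 on GRCm38 and promoters from RefSeq. Python 3.11.15, numpy 2.4.6, scipy 1.17.1 and pandas 2.3.3 were used. The alternatives tried were other gene minimums, gates, scalings and weightings, removal of doublet calls or free RNA, and each class of cells alone. All 32 members are accounted for. Named were those past a fold in a lineage or genotype comparison, the paralog families, and list genes past a fold.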

Additional observations from a re-analysis of the deposited data

Results flagged for a closer look

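The *Yap1* cKO to control ratio lay on opposite sides of 1 in Y-bearing and Xist-bearing cells for 13 member and population pairs, with both counting intervals clear of 1 and at least 1 ratio past 1.5-fold. Populations with fewer than 10 cells of either class were left aside. The share of all genes that meet this rule was not measured, so the count of pairs has no background. These differences were not tested, since each class comes from 1 library of each genotype. In blood and endothelial progenitors, with 14 and 15 control and 12 and 20 *Yap1* cKO cells, the Y-bearing and Xist-bearing ratios were 0.4299 and 1.414 for *Slc2a1*, 0.1855 and 2.145 for *Slc2a3*, and 0.5583 and 1.885 for *Pfkp*. There they were 0.6193 and 1.589 for *Tpi1*, 0.6492 and 1.169 for *Eno1*, and 0.4145 and 1.202 for *Slc16a3*. In ExE the ratios were 0.5547 and 1.136 for *Slc2a3*, 0.3877 and 1.678 for *Pfkfb3*, and 0.6172 and 1.491 for the X-linked *Pdk3*. In VE they were 0.6588 and 1.097 for *Aldoa* and 0.3026 and 1.25 for *Pdk1*, with 12 Y-bearing *Yap1* cKO cells. *Taldo1* in VE was the 1 pair with the higher ratio in Y-bearing cells, at 1.564 and 0.7397. In nascent mesoderm *Slc2a1* had ratios of 0.5325 and 1.246.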

How the results depend on the processing

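No paired analysis was possible because each genotype has 1 library, so the groups share fewer than 2 replicate numbers. No library could be left out for the same reason. The count of members at least 1.5-fold lower in *Yap1* cKO epiblast, 2 as reported, was 1 with a minimum of 2000 detected genes, 1 with gates at 2 times the threshold, 1 with the median gene scaled to a ratio of 1, 7 in Y-bearing cells alone and 1 in Xist-bearing cells alone. The *Slc2a1* ratio in epiblast stayed below 1 in each of these settings, between 0.3719 and 0.6689. The highest value, in Xist-bearing cells alone, fell just short of 1.5-fold lower. The count was 1 in *Fgf8*-low and 4 in *Fgf8*-positive cells, which were chosen after seeing the data. The count of members lower in ExE than in epiblast was 1 in place of 2 with each cell weighted equally. The share of all genes past the same fold was not measured under these altered settings, so their counts have no background. Of the 16 genotype ratios past 1.5-fold, 4 changed direction under some setting. *Pfkfb3* in nascent mesoderm was 1.409 in Xist-bearing cells, *Slc2a3* in node and axial cells 1.451 with stricter gates and 1.247 in Y-bearing cells, *Pfkfb4* in VE 1.076 in Y-bearing cells, and *Slc16a3* in VE 1.058 in Xist-bearing cells, and the cause was not tested. None of the 94 lineage folds, which leave out *Slc2a2*, changed direction under the 8 settings tried. With each cell weighted equally, 4 of the 94 fell short of 2-fold, as did 4 with the median gene scaled to a ratio of 1. Of the 16 genotype ratios, 6 fell short of 1.5-fold with gates at 2 times the threshold and 5 with equal weighting. In Y-bearing cells alone 6 fell short, and in Xist-bearing cells alone 6. Limits are 1 library for each genotype, different sex mixtures of the pools, and gates with 39 and 48 cells within 1.5 times the streak threshold.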
